A study of Mus musculus with 3 samples.

Results

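The variable (V) genes of the αβ T cell receptor were taken as every gene of the deposited tables whose symbol begins with *Trbv* or *Trav*, which gave 163 of 32285 genes, 35 at the beta locus and 128 at the alpha locus. Of these, 130 are annotated as functional V genes and 33 as pseudogenes. Use of a V gene was measured as the percentage of cells of a type that held at least 1 unique molecular identifier (UMI, 1 captured RNA molecule) of that gene, referred to below as its share. Cell types were set by UMIs of a few genes that are not V genes. CD8 T cells held at least 2 *Cd3e*, 1 *Cd8a* and 1 *Cd8b1* UMIs, CD4 T cells at least 2 *Cd3e* and 1 *Cd4* and no *Foxp3*, and regulatory T cells (Treg) at least 2 *Cd3e* and 1 *Foxp3*. NK cells, with at least 1 *Ncr1* and no *Cd3e*, do not rearrange these genes and served as background. CD8 T cells were also divided by whether they held a UMI of *Havcr2*, which encodes the inhibitory receptor TIM-3.

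The study followed lymphocytes inside subcutaneous tumors, labeled MC38-Ova (colon carcinoma cells named for the model antigen ovalbumin) but called MC38 in the study's account of this experiment. The hosts were WT C57BL/6 Kaede mice, whose photoconvertible reporter lets cells present at illumination of the tumor be told from later arrivals. All mice of the libraries used here were treated with isotype control, received 250000 tumor cells, had the tumor photoconverted on day 13 and were killed on day 15. Kaede Green+ (KG+) cells, which had entered within the last 48 h, formed 2 libraries, Kaede-green 1 and Kaede-green 2, and Kaede Red+ (KR+) cells, which had been in the tumor for at least 48 h, formed 1 library, Kaede-red. The tumors are grafts under the skin, not in the organ of origin. Neither the number nor the age of the mice behind a library is stated in the labels, and the labels do not say which libraries share mice. The p-values here therefore measure only how differences between groups of cells vary from library to library. With 1 KR+ library, no test of time in the tumor was possible.

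In a developing T cell, a beta chain is built by joining 1 V gene to short D and J segments. An alpha chain is built by joining 1 V gene to a J segment. The result is spliced to a constant region (*Trbc1* or *Trbc2*, and *Trac*). The paired chains contact peptide and MHC, so the V genes of a T cell are part of what decides its antigen, and its daughter cells inherit them. Cells restricted by MHC class I (CD8) and class II (CD4 and Treg) are selected separately in the thymus, and a clone that divides in a tumor raises the share of its own V genes. The mouse alpha locus contains long internal duplications, whose genes carry a d or n in the symbol and are near copies of genes without the letter.

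The libraries were made with a 3′ kit, in which reads start at the far end of the transcript, while the V segment lies at the 5′ end beyond the constant region. A V gene was therefore seen in only a fraction of the cells that use it. That fraction was not measured for each gene, so genes ordered by share need not be in their order of true use. To show what the tables count, the last 90 coding bases of the V genes on which the results turn are given from the GENCODE transcripts of build GRCm38, 5′ to 3′, all from the plus strand, with the in-frame cysteine codon nearest the end, where the hypervariable junction opens, in capitals. The beta genes are *Trbv12-2* (chr6:41118851-41119364), the gene most used by CD8 T cells, its neighbor *Trbv12-1* (chr6:41113550-41114067), *Trbv2* (chr6:41047340-41047995), the gene most used by Treg, *Trbv29* (chr6:41271394-41271881), which led the calls of 1 library, and *Trbv26* (chr6:41227505-41227993), which was part of the commonest pair.
Trbv12-2: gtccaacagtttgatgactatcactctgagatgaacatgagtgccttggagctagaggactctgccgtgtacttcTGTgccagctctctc
Trbv12-1: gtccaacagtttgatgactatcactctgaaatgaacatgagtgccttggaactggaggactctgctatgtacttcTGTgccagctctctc
Trbv2: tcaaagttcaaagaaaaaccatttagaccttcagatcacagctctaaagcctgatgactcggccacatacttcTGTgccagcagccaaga
Trbv29: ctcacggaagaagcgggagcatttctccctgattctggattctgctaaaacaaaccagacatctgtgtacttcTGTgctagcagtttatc
Trbv26: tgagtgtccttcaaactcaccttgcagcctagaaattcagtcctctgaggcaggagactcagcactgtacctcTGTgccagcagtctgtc

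The alpha genes shown are *Trav16n* (chr14:53351028-53351621), the gene most used by CD8 T cells, its copies *Trav16* (chr14:53743104-53743705) and *Trav16d-dv11* (chr14:53047287-53047821), *Trav6-7-dv9* (chr14:53709902-53710419), the gene most used by Treg, and *Trav7-3* (chr14:53443249-53443839), the partner of *Trbv29*.
Trav16n: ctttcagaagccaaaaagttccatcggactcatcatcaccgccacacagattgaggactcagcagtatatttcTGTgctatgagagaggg
Trav16: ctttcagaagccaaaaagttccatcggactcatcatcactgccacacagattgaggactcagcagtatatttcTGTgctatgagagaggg
Trav16d-dv11: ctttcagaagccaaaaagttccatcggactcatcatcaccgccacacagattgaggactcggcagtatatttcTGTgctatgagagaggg
Trav6-7-dv9: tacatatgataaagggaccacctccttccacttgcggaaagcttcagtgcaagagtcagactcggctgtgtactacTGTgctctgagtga
Trav7-3: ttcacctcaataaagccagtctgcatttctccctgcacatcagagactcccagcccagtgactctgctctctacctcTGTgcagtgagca

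These stretches differ little between copies. *Trbv12-1* and *Trbv12-2* differed at 31 of their last 270 coding bases and at 5 of the 90 shown, *Trav16* and *Trav16n* at 4 of 270 and at 1 of 90, and *Trav16n* and *Trav16d-dv11* at 3 of 270. When every transcript was divided into windows of 100 bases, none of the 35 *Trbv* genes shared a window with another V gene. All windows of 38 *Trav* genes were shared, and these 38 genes held 8 UMIs in T cells between them. Partly shared genes included *Trav13n-3* (68.9% of windows), *Trav7-3* (62.0%), *Trav16n* (33.0%), *Trav13-4-dv7* (29.7%), *Trav9-1* (26.4%), *Trav6-7-dv9* (25.4%) and *Trav16* (17.1%), and how reads divide between them and their copies is uncertain.

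After filters and removal of doublets, the libraries held 9557, 10437 and 10554 cells, of which 8901 were CD8 T, 992 CD4 T, 1670 Treg and 7442 NK cells. CD4 T cells were few, with 393, 394 and 205 per library. Cells left out for meeting another gate were 9.45, 20.9 and 30.5% of the CD4 gate. They were 14.8, 21.0 and 14.3% of the Treg gate and 4.62, 8.59 and 4.98% of the CD8 gate. Without any *Cd8a* or *Cd8b1* UMI were 352, 284 and 173 CD4 T cells and 304, 414 and 481 Treg. Total UMIs were 87193225, 129438292 and 175848894, and median UMIs per CD8 T cell were 8592, 10109 and 13766, in the order Kaede-green 1, Kaede-green 2 and Kaede-red. The libraries shared between 20 and 36 cell barcodes in pairs. Of the markers that the gates had not used, some set a type apart and others did not. *Cd40lg*, a helper T cell ligand, stood at 62.0 to 84.5 counts per 1000000 UMIs (CPM) in CD4 T and at most 5.90 CPM in the other types. *Il2ra*, the IL-2 receptor alpha chain, stood at 562 to 680 CPM in Treg and at most 211 CPM elsewhere. In CD4 T, *Il2ra* stood at 77.5, 130 and 211 CPM. Other markers chosen for Treg were also present in CD4 T. *Tnfrsf4* stood at 706, 766 and 1231 CPM there against 2419, 2054 and 2406 CPM in Treg. *Ctla4* stood at 446, 460 and 574 against 1385, 1291 and 1276 CPM, and *Ikzf2* at 291, 484 and 663 against 1298, 1226 and 1684 CPM. The bearing of these levels on comparisons of CD4 T and Treg was not tested. *Ctsw*, chosen as a marker of CD8 T cells, stood at 492 to 562 CPM there but at 641 to 701 CPM in NK cells. *Cd5*, chosen for CD4 T cells, stood at 234 to 246 CPM there but at 307 to 326 CPM in Treg. The γδ T cell gene *Trdc* was also present in the CD4 gate, at 90.9 CPM in Kaede-green 1 against 28.1 and 35.9 CPM in the other libraries, and the mast cell gene *Mcpt4* stood at 11.1 CPM in CD8 T cells of Kaede-red and 0 in those of both KG+ libraries. Their part in the results was not tested.

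V gene RNA was found in a minority of T cells and was near absent from NK cells. A *Trbv* UMI was held by 27.4, 33.9 and 33.2% of CD8 T cells in Kaede-green 1, Kaede-green 2 and Kaede-red, in that order here and throughout. The same share was 22.4, 23.6 and 22.9% in CD4 T, 13.8, 23.5 and 12.7% in Treg, and 0.450, 0.559 and 0.702% in NK cells. Treg thus had the lowest *Trbv* share in each library, by a small margin in Kaede-green 2. A *Trav* UMI was held by 26.4, 28.7 and 30.7% of CD8 T, 26.2, 24.4 and 25.4% of CD4 T, 37.4, 39.3 and 34.0% of Treg and 1.15, 1.68 and 1.51% of NK cells, so that Treg had the highest *Trav* share in each library.

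These orders were read against depth, because CD8 T cells were deeper than CD4 T cells. With each cell thinned to 2000 UMIs, the *Trbv* share was 7.20, 8.02 and 6.00% in CD8 T, 8.78, 8.14 and 8.25% in CD4 T and 3.43, 5.54 and 3.45% in Treg, and at most 2 cells of a group were too shallow to thin. CD4 T cells were no longer below CD8 T cells, whereas Treg remained the lowest. The thinned *Trav* share was 7.59, 7.34 and 6.51% in CD8 T, 11.6, 8.34 and 10.1% in CD4 T and 11.99, 12.1 and 12.5% in Treg. Summed *Trbv* RNA was 15.2, 25.3 and 16.0 CPM in Treg, below every value in CD8 T (34.0, 38.3 and 29.4) and CD4 T (42.3, 42.1 and 39.8). Summed *Trav* RNA was 59.2, 62.3 and 68.5 CPM in Treg, 39.0, 36.4 and 32.8 in CD8 T and 64.5, 44.0 and 43.7 in CD4 T, where Treg and CD4 T overlapped.

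Between Treg and CD8 T cells, *Trbc2* and *Trac* differed in the same direction as these totals. *Trbc2* stood at 910, 868 and 944 CPM in Treg against 1908, 1748 and 1876 in CD8 T and 1738, 1586 and 1550 in CD4 T. In each library it was lower in CD4 T than in CD8 T, whereas summed *Trbv* RNA was higher. *Trac* stood at 1060, 1001 and 1319 CPM in Treg, 727, 698 and 744 in CD8 T and 796, 791 and 997 in CD4 T. For every 100 UMIs of *Trbc1* and *Trbc2*, 1.22, 1.37 and 1.09 *Trbv* UMIs were counted in CD8 T, 1.60, 1.79 and 1.68 in CD4 T and 1.04, 1.93 and 1.11 in Treg. NK cells transcribed the unrearranged constant gene *Trbc1* at 645, 642 and 520 CPM, but held only 0.0634, 0.0598 and 0.0476 *Trbv* UMIs for every 100 constant UMIs. In these sums over cells, fewer cells that use a gene and less RNA per cell cannot be told apart.

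**Figure D1:**
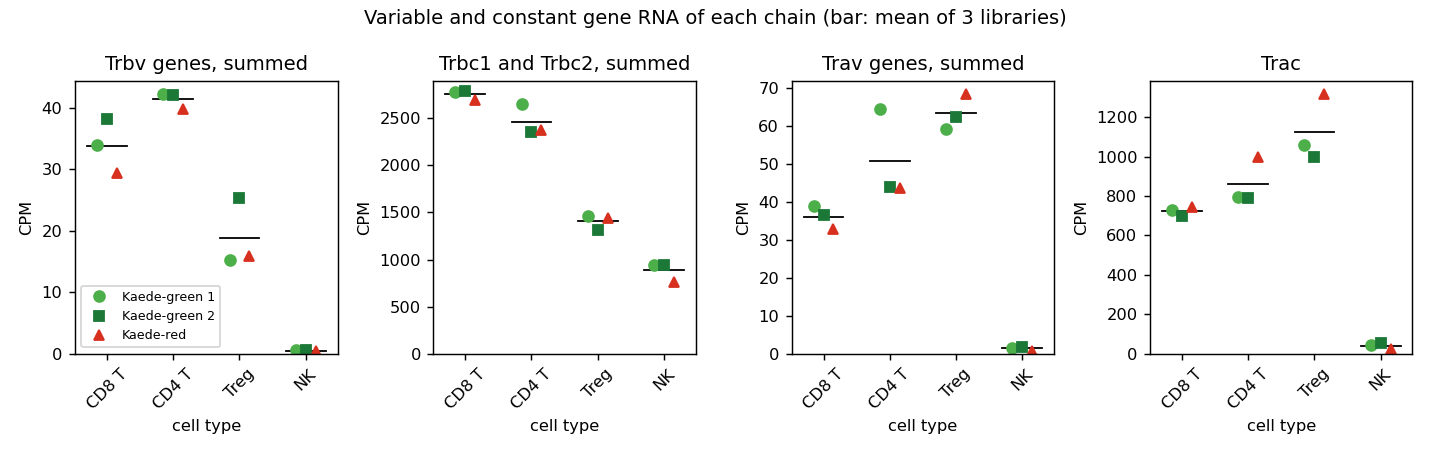
CPM (vertical axes, from 0) of summed *Trbv* genes, summed *Trbc1* and *Trbc2*, summed *Trav* genes and *Trac* in CD8 T, CD4 T, Treg and NK cells; points are the 3 libraries (circle Kaede-green 1, square Kaede-green 2, triangle Kaede-red) and bars their means. Treg sat lowest of the T cell types for *Trbv*, at 15.2 to 25.3 CPM, and at 59.2 to 68.5 CPM for *Trav*, above all CD8 T values.

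Detection was spread over many genes. UMIs in T cells were found for 23 of 35 *Trbv* genes (21 with at least 10) and 86 of 128 *Trav* genes (61 with at least 10), with none for the other 12 and 42. Pseudogenes gave 23 of 4742 *Trbv* UMIs and 67 of 5911 *Trav* UMIs. A filter on low counts left 44 of the 163 V genes for tests between types (16 *Trbv* and 28 *Trav*) and 40 for the test by *Havcr2* (17 and 23), and the other V genes were not tested. Against NK cells, 41 of the 44 were higher in T cells and 0 lower (quasi-likelihood test of edgeR, Benjamini-Hochberg adjusted over 12328 genes), with 18.8% of all genes tested called higher and 19.3% lower. *Trbv12-1*, *Trbv14* and *Trav12-3* were not called (adjusted p = 1.0, 0.969 and 0.998 in edgeR). Each was at 0 in every library of at least 1 of the types, where the averaged contrast could not be fitted, and DESeq2 called 43 of the 44 higher. None of the 44 was lower at an unadjusted p under 0.05 or by DESeq2. These 44 genes passed the filter through their T cell sums, since none had more than 10 UMIs over all NK cells. The direction of these counts therefore follows largely from the filter and is no result about V genes. *Trbv12-1* had 46, 76 and 104 UMIs in T cells and 0 in 7442 NK cells. Its share over the pooled NK cells is at most 0.0403%, which covers counting error only.

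Among beta genes of CD8 T cells, *Trbv12-2* came first, with a share of 6.26, 4.16 and 6.75% (5.72% ± 1.38, SD, n = 3). NK cells held *Trbv12-2* at 0.123, 0 and 0.0351%. Of the 133, 122 and 259 CD8 T cells with *Trbv12-2*, 104, 93 and 182 held no other beta gene. However, only 157, 300 and 375 of the 582, 995 and 1275 CD8 T cells with a *Trbv* UMI held at least 2. A second beta gene could not be seen in the others. The lowest library of *Trbv12-2* in CD8 T cells lay above the highest of any other *Trbv* gene. The margin was narrow, since *Trbv29* reached 3.98% in Kaede-green 2. *Trbv14* (2.40% ± 0.308), *Trbv13-2* (2.34% ± 0.794), *Trbv16* (2.27% ± 0.352) and *Trbv29* (2.18% ± 1.58) followed, and these neighbors in the order did not differ beyond their spread. *Trbv29* varied most of the 5, from 1.03% in Kaede-green 1 to 3.98% in Kaede-green 2, with Kaede-red at 1.51%.

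In CD4 T cells the order was *Trbv20* (3.09% ± 0.404), *Trbv12-2* (3.02% ± 0.499), *Trbv2* (2.94% ± 0.938), *Trbv3* (2.32% ± 1.40) and *Trbv13-2* (2.18% ± 0.194). Each gene overlapped the next in the order, while *Trbv20* and *Trbv12-2* lay above *Trbv13-2* in all libraries. In Treg it was *Trbv2* (4.49% ± 2.00), *Trbv1* (2.76% ± 1.31), *Trbv20* (1.68% ± 0.635), *Trbv3* (1.51% ± 0.857) and *Trbv13-2* (1.27% ± 0.766). *Trbv2* was the most used beta gene of Treg in each library, at 3.37, 6.80 and 3.30%, and *Trbv1* was second in Kaede-green 2 and Kaede-red at 4.02 and 2.85%. *Trbv12-2*, first in CD8 T cells, was seventh in Treg at 1.12, 1.08 and 0.600%.

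**Figure D2:**
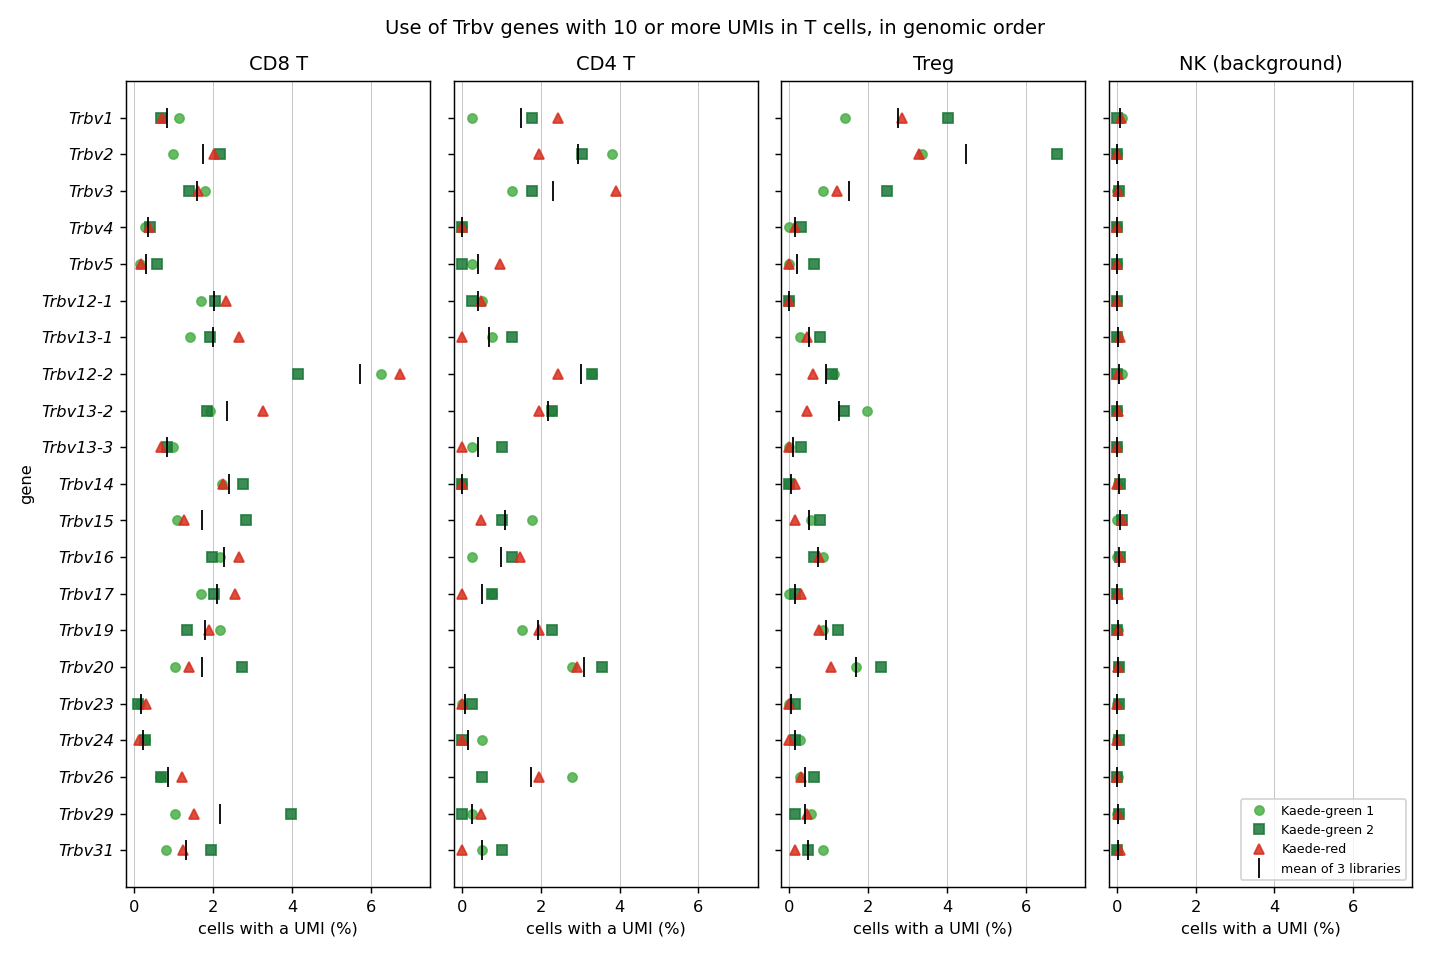
Percentage of CD8 T, CD4 T, Treg and NK cells with at least 1 UMI (horizontal axes) of each *Trbv* gene with 10 or more UMIs in T cells, in genomic order; points are the 3 libraries and vertical ticks their means. *Trbv12-2* stands out in CD8 T cells at 4.16 to 6.75%, *Trbv2* in Treg at 3.30 to 6.80%, and NK cells lie near 0.

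CD8 T and CD4 T cells, which are selected on different MHC classes, were compared first. Higher in CD8 T were 2 of the 44 V genes and lower were 4, by edgeR with Benjamini-Hochberg adjustment, while 9.18% of all genes tested were higher and 11.5% lower. The beta gene *Trbv14* was held by 2.21, 2.76 and 2.24% of CD8 T cells and by 0 of 992 CD4 T cells. Over the pooled cells of all libraries, 0 allows at most 0.302%, which covers counting error only. *Trbv14* was at least 5.50-fold higher in CD8 T (edgeR adjusted p = 0.0134), taken against 3 counts over the CD4 T cells of all libraries. The alpha gene *Trav16n* had shares of 3.76, 2.38 and 4.45% in CD8 T against 1.02, 2.03 and 0.488% in CD4 T, and was higher by 1.39 ± 0.44 (log2 fold change of normalized UMIs ± SE, edgeR adjusted p = 0.0478).

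Lower in CD8 T than in CD4 T was *Trbv20*, with shares of 1.03, 2.72 and 1.38% against 2.80, 3.55 and 2.93% (log2 fold change −1.45 ± 0.29, edgeR adjusted p = 0.00722). *Trbv2* was lower by a log2 fold change of −1.22 ± 0.36 (edgeR adjusted p = 0.0434), from 0.988, 2.18 and 2.03% in CD8 T against 3.82, 3.05 and 1.95% in CD4 T, where the shares overlap but the CPM do not. *Trav14-2* (log2 fold change −2.13 ± 0.49, edgeR adjusted p = 0.0188) and *Trav14n-3* (−3.34 ± 0.99, edgeR adjusted p = 0.0372) were also lower, and *Trav14n-3* overlapped between the types, with 1 CD4 T cell in Kaede-green 2. None of the 6 calls was left when cells that met several gates were kept in all of them, where 7 V genes had an unadjusted p under 0.05. The count fell to 1 without Kaede-green 1 and to 2 without Kaede-green 2. Scaled to the UMIs of each locus, which removes the difference in chain totals, 2 V genes were higher and 2 lower.

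CD8 T cells and Treg, the most numerous T cell types, had the most V genes called between them. Of the 16 *Trbv* genes tested, 9 were higher in CD8 T and 2 lower, while of the 28 *Trav* genes 2 were higher and 8 lower (edgeR, Benjamini-Hochberg), beside 13.1% of all genes tested higher and 12.9% lower. The beta and alpha counts ran in opposite directions, as did the chain totals above. With each library scaled to the UMIs of its locus, 4 *Trbv* genes were higher and 2 lower and 3 *Trav* genes were higher and 8 lower, with the median V gene shifted by −0.96 (log2) at the beta locus and 0.68 at the alpha locus. The 21 calls became 12 without Kaede-green 1, 7 without Kaede-green 2 and 17 without Kaede-red.

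The clearest beta genes were the *Trbv12* pair and *Trbv14*. *Trbv12-1* was held by 1.69, 2.04 and 2.32% of CD8 T cells, by 0.509, 0.254 and 0.488% of CD4 T cells and by 0 of 1670 Treg. Over the pooled Treg, 0 allows at most 0.180%, which covers counting error only. *Trbv12-1* was at least 11.5-fold higher in CD8 T than in Treg (edgeR adjusted p = 0.00123). *Trbv14* had 1 UMI in all Treg, in Kaede-red, and was 42.9-fold higher in CD8 T (95% counting interval 7.63 to 1699, edgeR adjusted p = 0.00162). *Trbv12-2* was higher by a log2 fold change of 2.75 ± 0.37 (edgeR adjusted p = 0.000312), and all 3 libraries of CD8 T lay above all 3 of Treg. These 3 calls were kept in each of the 12 alternatives run for each of them.

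*Trbv17* was held by 1.69, 2.01 and 2.55% of CD8 T cells against 0, 0.155 and 0.300% of Treg (log2 fold change 3.48 ± 0.63, edgeR adjusted p = 0.002). The other beta genes higher in CD8 T were *Trbv29* (2.55 ± 0.73), *Trbv13-1* (2.07 ± 0.55), *Trbv16* (1.91 ± 0.47), *Trbv15* (1.85 ± 0.55) and *Trbv31* (1.80 ± 0.60), with edgeR adjusted p between 0.0115 and 0.0483. None of these groups overlapped in CPM, although *Trbv31* kept its call in only 4 of 12 alternatives. *Trbv1* was lower in CD8 T by −1.89 ± 0.61 (edgeR adjusted p = 0.0422), from 1.13, 0.681 and 0.703% against 1.40, 4.02 and 2.85% in Treg, and *Trbv2* by −1.05 ± 0.30 (edgeR adjusted p = 0.0333).

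Most alpha genes that differed were higher in Treg. *Trav6-7-dv9*, the alpha gene most used by Treg, had shares of 3.65, 2.94 and 3.60% there against 1.27, 1.81 and 2.11% in CD8 T and 0.123, 0.0932 and 0.175% in NK (log2 fold change in CD8 T −1.94 ± 0.29, edgeR adjusted p = 0.000593). *Trav9-1* had shares of 1.69, 1.39 and 2.55% in Treg against 0.376, 0.409 and 0.182% in CD8 T (−3.03 ± 0.64, edgeR adjusted p = 0.00501). Both calls were kept in all 12 alternatives, and neither gene overlapped between the types.

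*Trav13-4-dv7* (−3.002 ± 0.75), *Trav17* (−2.47 ± 0.60), *Trav14-1* (−2.29 ± 0.51), *Trav12-3* (−2.23 ± 0.65), *Trav9-4* (−2.18 ± 0.44) and *Trav14-2* (−1.68 ± 0.41) were lower in CD8 T as well, with edgeR adjusted p between 0.00624 and 0.034, and *Trav13-4-dv7*, *Trav17* and *Trav14-1* overlapped in CPM. They rest on few cells, for example *Trav17* on 1, 6 and 7 Treg. *Trav13n-4* was higher in CD8 T by 1.61 ± 0.46 (edgeR adjusted p = 0.0252), with shares of 1.46, 0.681 and 2.24% against 0.562, 0.464 and 0.450%, and *Trav16n* by 1.16 ± 0.34 (edgeR adjusted p = 0.0293).

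CD4 T cells and Treg share restriction by MHC class II. Of the 16 *Trbv* genes, 5 were higher in CD4 T and 0 lower, and of the 28 *Trav* genes 0 were higher and 1 lower (edgeR, Benjamini-Hochberg), beside 10.1% of all genes tested higher and 8.8% lower. In both directions with a count of 0, the count was also 0 at an unadjusted p under 0.05 and by DESeq2. *Trbv12-2*, at 3.31, 3.30 and 2.44% of CD4 T against 1.12, 1.08 and 0.600% of Treg, was higher by a log2 fold change of 2.49 ± 0.46 (edgeR adjusted p = 0.00478). *Trbv20* (1.60 ± 0.32, edgeR adjusted p = 0.00724), *Trbv26* (2.84 ± 0.69, edgeR adjusted p = 0.0175) and *Trbv19* (1.83 ± 0.49, edgeR adjusted p = 0.0273) were also higher. *Trbv12-1*, with 4 UMIs in CD4 T and 0 in Treg, was at least 3.47-fold higher (edgeR adjusted p = 0.0466).

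*Trav6-7-dv9* was the alpha gene lower in CD4 T (1.27, 1.52 and 0.976% against 3.65, 2.94 and 3.60% in Treg, log2 fold change −1.84 ± 0.41, edgeR adjusted p = 0.0123). Scaled to the UMIs of each locus, 1 *Trbv* gene was higher in CD4 T and 2 lower, and the median *Trbv* gene shifted by −1.10 (log2). The count of 6 fell to 0 without Kaede-green 1 (9 at an unadjusted p under 0.05) and to 1 without Kaede-green 2. *Trbv12-2* was higher in CD8 T and in CD4 T than in Treg, and both comparisons share the same Treg sums.

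*Trav3-3*, *Trav5-4* and *Trav6-7-dv9* were among the 5 most used alpha genes of each T cell type. In CD8 T cells these 5 were *Trav16n* (3.53% ± 1.05), *Trav3-3* (1.77% ± 0.409), *Trav6-7-dv9* (1.73% ± 0.425), *Trav16* (1.71% ± 0.362) and *Trav5-4* (1.62% ± 0.704). *Trav16n* lay above the other 4 in each library. In CD4 T cells they were *Trav3-3* (1.67% ± 0.786), *Trav5-4* (1.51% ± 0.765), *Trav16* (1.497% ± 0.467), *Trav14n-3* (1.41% ± 1.01) and *Trav6-7-dv9* (1.26% ± 0.274), all overlapping. In Treg they were *Trav6-7-dv9* (3.40% ± 0.398), *Trav3-3* (2.49% ± 0.831), *Trav5-4* (2.08% ± 0.209), *Trav16n* (1.93%) and *Trav9-1* (1.88%), where *Trav6-7-dv9* and *Trav3-3* overlapped.

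Genes with an n in the symbol, 34 in all, gave 27.9, 29.0 and 30.1% of the *Trav* UMIs of CD8 T cells, 19.0, 21.7 and 16.4% of those of CD4 T cells and 10.3, 15.4 and 8.70% of those of Treg. The 3 types did not overlap in this measure, which was not tested. *Trav16n* alone gave 15.5, 12.02 and 19.2% of the *Trav* UMIs of CD8 T cells. The 39 genes with a d gave 8.12, 7.27 and 6.50% in CD8 T.

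**Figure D3:**
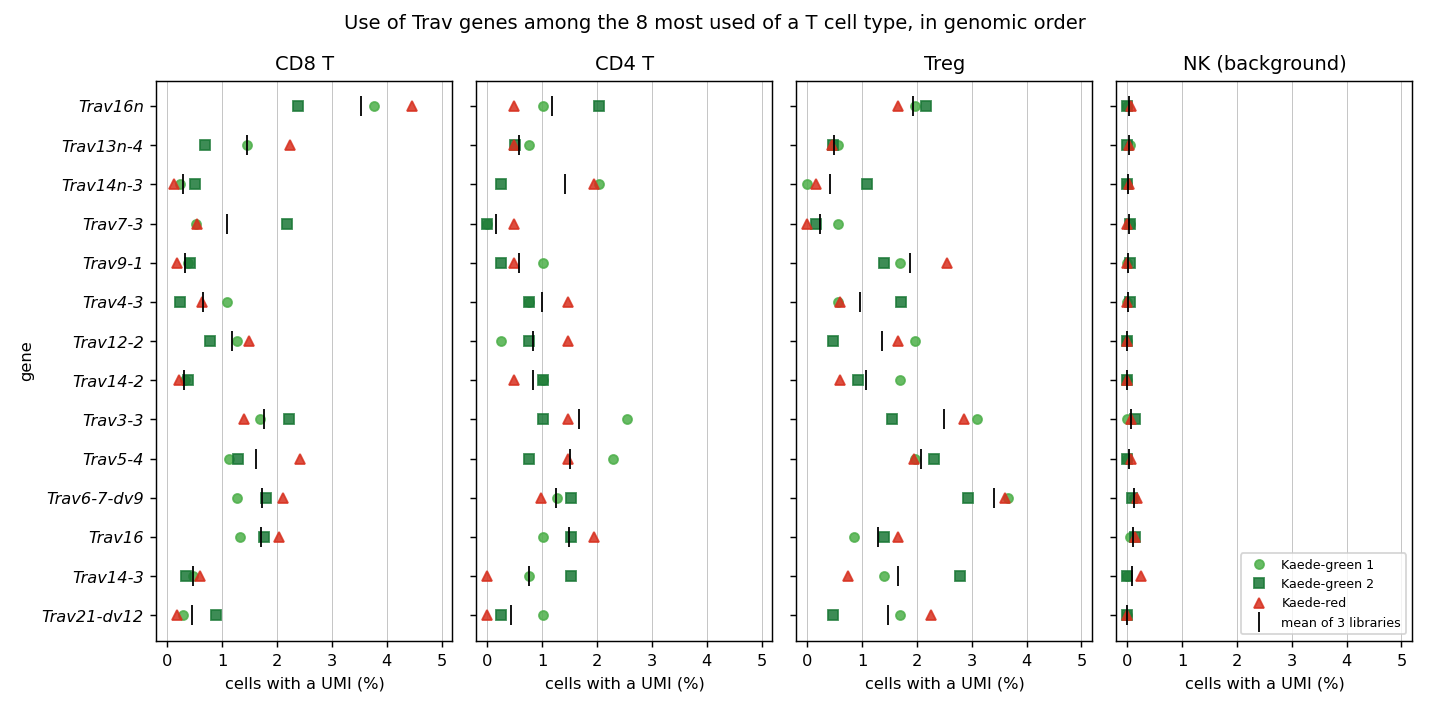
Percentage of CD8 T, CD4 T, Treg and NK cells with at least 1 UMI (horizontal axes) of each *Trav* gene among the 8 most used of a T cell type, in genomic order; points are the 3 libraries and vertical ticks their means. *Trav16n* leads in CD8 T at 2.38 to 4.45% and *Trav6-7-dv9* in Treg at 2.94 to 3.65%.

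CD8 T cells with and without *Havcr2* were compared next, since TIM-3 is known from T cells under lasting antigen contact. Cells with *Havcr2* numbered 422, 1012 and 1810 and those without 1704, 1924 and 2029, and the former were deeper, at median UMIs of 11857.5, 12042.5 and 17158 against 8184.5, 9102 and 11001. Of the 23 *Trav* genes tested, 3 were higher and 3 lower in *Havcr2*+ cells, and of the 17 *Trbv* genes 0 were higher and 4 lower (edgeR, Benjamini-Hochberg over 11986 genes), beside 13.6% of all genes tested higher and 14.0% lower. No *Trbv* gene was higher at an unadjusted p under 0.05 or by DESeq2. *Trav5-1* was held by 0.237, 0.198 and 0.111% of *Havcr2*+ cells against 0.822, 0.468 and 0.838% of *Havcr2*− cells (log2 fold change −3.22 ± 0.47, edgeR adjusted p = 0.00253). It was lower in all 3 libraries and kept its call in all 11 alternatives.

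*Trav6-4* was higher in *Havcr2*+ cells, at 2.61, 0.692 and 1.33% against 0.293, 0.260 and 0.296% (1.72 ± 0.36, edgeR adjusted p = 0.0104). *Trav13n-4* (1.28 ± 0.28, edgeR adjusted p = 0.0116) and *Trav13n-3* (1.35 ± 0.42, edgeR adjusted p = 0.0452) were also higher, *Trav13n-4* in 16, 15 and 60 cells against 15, 5 and 26. *Trav16n*, the most used alpha gene, had shares of 7.11, 2.17 and 6.41% in *Havcr2*+ cells against 2.93, 2.49 and 2.71%, and did not pass the test (log2 fold change 0.63 ± 0.27, edgeR adjusted p = 0.118). It was the higher of the pair in Kaede-green 1 and Kaede-red and the lower in Kaede-green 2.

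Lower in *Havcr2*+ cells were *Trbv1* (−1.95 ± 0.49), *Trbv13-3* (−1.64 ± 0.45), *Trbv3* (−1.20 ± 0.36), *Trav3-3* (−1.06 ± 0.24), *Trav16* (−0.91 ± 0.23) and *Trbv12-2* (−0.52 ± 0.14), with edgeR adjusted p between 0.0152 and 0.0404. *Trbv12-2* overlapped between the groups, and its share was 7.58, 3.85 and 7.13% in *Havcr2*+ against 5.93, 4.31 and 6.41% in *Havcr2*− cells, higher in 2 of 3 libraries, unlike the depth-normalized UMIs. The 10 calls became 6 without Kaede-green 1, 6 without Kaede-green 2, 3 with DESeq2 and 1 when the library was not in the model.

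To measure how evenly the V genes were used, each cell was given the gene with most UMIs at a locus (cells with a tie were left out). Such a call leaves out any further gene of a cell. Among cells with at least 2 *Trav* UMIs, at least 2 *Trav* genes were held by 41.6, 37.4 and 31.2% of CD8 T cells. In CD4 T this was 44.7, 31.0 and 16.7%, and in Treg 40.0, 41.2 and 39.3%. The effective number of genes was taken as the inverse of the chance that 2 cells carry the same gene. A low number means that few genes dominate. It was 12.7, 15.1 and 13.6 for *Trbv* in CD8 T (13.8 ± 1.21, SD, n = 3), 10.9, 12.7 and 12.3 in CD4 T (11.96 ± 0.952) and 11.4, 7.43 and 7.46 in Treg (8.76 ± 2.27). For *Trav* it was 27.3, 27.6 and 19.4 in CD8 T (24.8 ± 4.66), 39.2, 46.6 and 45.4 in CD4 T (43.7 ± 3.93) and 39.7, 37.6 and 29.2 in Treg (35.5 ± 5.58).

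CD8 T cells thus had the highest number for *Trbv* and the lowest for *Trav* in each of the 3 libraries. The *Trbv* order turned with cells kept in every gate, where Treg of Kaede-green 1 had 14.2 against 12.9 in CD8 T and CD4 T of Kaede-red 14.8 against 13.6, and with calls of at least 2 UMIs in Kaede-red, where CD4 T had 13.2 against 13.01. The mean difference between CD8 T and CD4 T was 1.86 for *Trbv* and −19.0 for *Trav*, and that between CD8 T and Treg 5.07 and −10.7. Each gave p = 0.25 in an exact two-sided permutation test of the 3 within-library differences (adjusted p = 0.375 over 3 pairs of types), which is the smallest p that 3 libraries allow. CD4 T and Treg differed by 3.21 for *Trbv* and 8.25 for *Trav*, in the same direction in 2 of 3 libraries (exact permutation p = 0.5). *Havcr2*+ CD8 T cells had *Trav* numbers of 17.1, 21.7 and 15.4 against 30.2, 29.8 and 24.1 in *Havcr2*− cells, with no overlap. The former cells were deeper. The separation held with doublets kept and with cells kept in every gate. It also held with calls of at least 2 UMIs (6.92, 14.9 and 7.03 against 16.2, 15.9 and 16.4). Over UMIs it held as well (12.4, 21.2 and 10.97 against 25.1, 23.1 and 21.5). It was lost with each cell thinned to 2000 UMIs, where only 23, 75 and 122 *Havcr2*+ cells had a *Trav* call. The *Trav* numbers were then 18.1, 26.9 and 12.6 against 31.1, 21.8 and 22.6, so that the order turned in Kaede-green 2. For *Trbv* the values without thinning were 10.4, 12.4 and 14.1 against 12.7, 16.4 and 12.8. The difference by *Havcr2* was not tested.

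**Figure D4:**
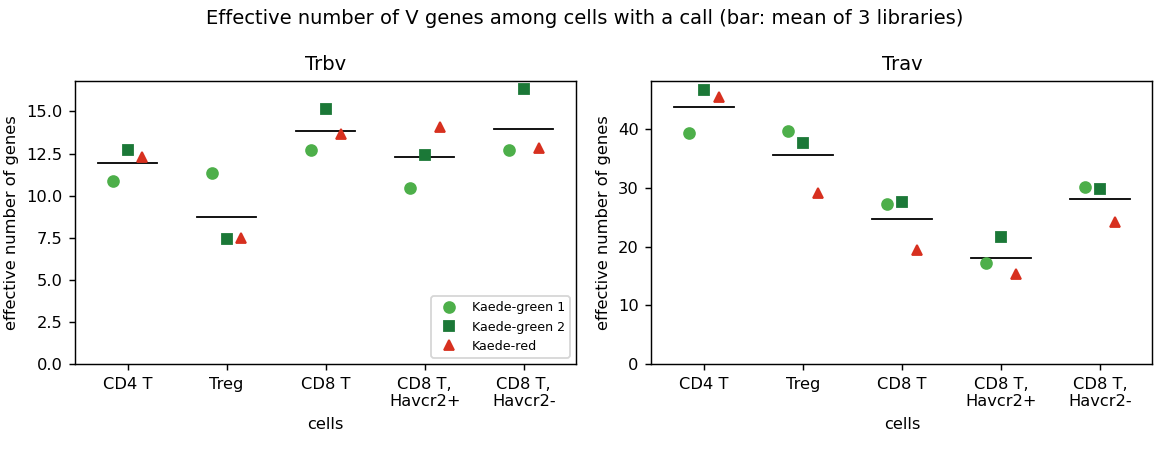
Effective number of *Trbv* (left) and *Trav* (right) genes among cells with a call (vertical axes, from 0) in CD4 T, Treg, CD8 T and CD8 T cells with and without *Havcr2*; points are the 3 libraries and bars their means. Treg of Kaede-green 2 and Kaede-red lie lowest for *Trbv* at 7.43 and 7.46. In these values without thinning, *Havcr2*+ CD8 T cells lie lowest for *Trav* in each library, at 15.4 to 21.7.

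The leading gene of a type named what the skew rested on. *Trbv12-2* was the call of 107 of 544 CD8 T cells in Kaede-green 1 (19.7%, exact 95% binomial interval 16.4 to 23.3, counting error only) and 193 of 1189 in Kaede-red (16.2%, 14.2 to 18.5). In Kaede-green 2 *Trbv29* led, with 111 of 946 (11.7%, 9.75 to 13.96). That leader was not stable, and was *Trbv20* with calls of at least 2 UMIs (50 of 251) and over UMIs (166 of 1458) and *Trbv12-2* in thinned cells (23 of 232). In Kaede-red, calls of at least 2 UMIs were led by *Trbv2* (39 of 289). *Trbv2* was the call of 9 of 46 Treg in Kaede-green 1 (19.6%, 9.36 to 33.9), 43 of 149 in Kaede-green 2 (28.9%, 21.7 to 36.8) and 21 of 83 in Kaede-red (25.3%, 16.4 to 36.0). *Trav16n* led the CD8 T calls in all libraries, with 62 of 507, 66 of 779 and 159 of 1101, and in Treg *Trav6-7-dv9* led in Kaede-green 1 and Kaede-red and *Trav14-3* in Kaede-green 2. In *Havcr2*+ CD8 T cells of Kaede-green 2 the leaders were *Trbv29* (56 of 368) and *Trav7-3* (37 of 300). With calls of at least 2 UMIs these became *Trbv20* (21 of 116) and *Trav16n* (13 of 70). The *Trav* leaders of Treg in the KG+ libraries changed too. They were *Trav5-4* in Kaede-green 1 and *Trav4-3* in Kaede-green 2 with calls of at least 2 UMIs.

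A cell with both a *Trbv* and a *Trav* call gives a gene pair. Such cells numbered 147, 270 and 374 in CD8 T, 20, 21 and 13 in CD4 T and 11, 58 and 28 in Treg. J segments were seen in too few cells to narrow the pair, with a *Traj* UMI in 143 of 8901 CD8 T cells (1.61%) and a *Trbj* UMI in 43 (0.483%), so that a pair is a set of cells that may hold several clones. A random 2 of the paired CD8 T cells carried the same pair with a chance of 0.475, 0.889 and 1.29%, against 0.279, 0.251 and 0.418% if the chains were joined independently. In *Havcr2*+ CD8 T cells the chance was 1.01, 1.94 and 1.89%, and in *Havcr2*− cells 0.311, 0.404 and 0.822%. With chains joined independently the chance would be 0.431, 0.382 and 0.545% in *Havcr2*+ cells and 0.254, 0.188 and 0.352% in *Havcr2*− cells, so that both the measured chance and this baseline were higher in *Havcr2*+ cells of each library. The difference was not tested.

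The commonest pairs were particular genes in particular libraries. *Trbv26* with *Trav16n* was found in 3, 0 and 20 CD8 T cells, which made 5.35% of paired cells in Kaede-red (exact 95% interval 3.30 to 8.14). Of those 20 cells 18 held *Havcr2*, beside 216 of all 374 paired CD8 T cells of Kaede-red, a difference that was not tested. *Trbv29* with *Trav7-3* was found in 0, 15 and 0 cells (5.56% in Kaede-green 2, 3.14 to 8.998), and *Trbv20* with *Trav8d-2* in 0, 14 and 0 (5.19%, 2.86 to 8.55). A count of 0 allows shares of up to 2.04, 1.11 and 0.802% in the 3 libraries, by counting error only. *Trbv17* with *Trav16* (1, 5 and 14 cells) and *Trbv17* with *Trav5-4* (1, 6 and 13 cells) were seen in all libraries.

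In all, 17 pairs were called in 10 or more CD8 T cells and made up 231 of 791 paired cells. Of *Havcr2*+ paired cells, 144 of 367 carried one of them. Of the 17, 2 were also seen in Treg and 2 in CD4 T. The 17 were chosen by their counts in CD8 T cells, and paired Treg and CD4 T cells were few, so these counts do not compare the types. The largest Treg pair, *Trbv2* with *Trav14-3*, was found in 5 of 58 paired Treg of Kaede-green 2.

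The libraries were not equally alike in their pairs. Of 18 pairs held by 5 or more CD8 T cells in Kaede-red, 17 were also seen in Kaede-green 1 and 9 in Kaede-green 2, although Kaede-green 2 had more paired cells. Of 7 such pairs in Kaede-green 2, 2 were seen in Kaede-green 1 and 3 in Kaede-red. Of 26 pairs held by 2 or more cells in Kaede-green 1, 20 were seen in Kaede-red and 11 in Kaede-green 2. Whether this follows from which mice contributed to which library was not tested.

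**Figure D5:**
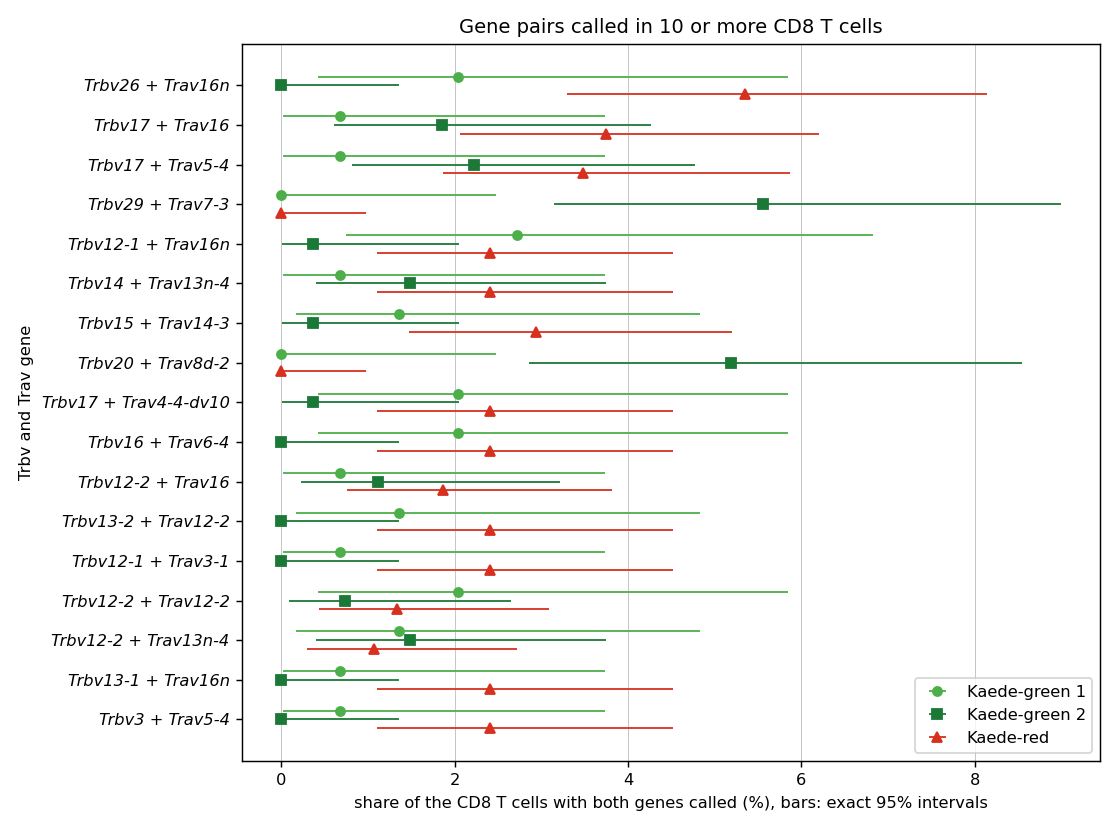
Share of the CD8 T cells with both genes called (horizontal axis, %) that carried each of the 17 gene pairs called in 10 or more cells; points are the 3 libraries and bars exact 95% binomial intervals, which cover counting error only. *Trbv26* with *Trav16n* reaches 5.35% in Kaede-red and is at 0 in Kaede-green 2, while *Trbv29* with *Trav7-3* and *Trbv20* with *Trav8d-2* are at 5.56% and 5.19% in Kaede-green 2 and at 0 in the others.

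Receptors known from unconventional T cells were looked for by their alpha V genes alone, *Trav11* of NKT cells and *Trav1* of MAIT cells. The J segment was not read, so a cell counted here need not be an NKT or MAIT cell. Genes of the *Trav11* family were held by 0, 3 and 0 CD8 T, 1, 0 and 0 CD4 T and 0, 0 and 1 Treg. The 3 CD8 T cells held *Trav11n*, which is annotated as a pseudogene. *Trav11* and *Trav11d* share 99.6 and 100% of their windows, and reads that fit several genes are left out. These counts therefore cannot show how many NKT cells were present. *Trav1* was held by 10, 6 and 34 CD8 T cells, or 0.470, 0.204 and 0.886%, by no CD4 T cell and by 0, 1 and 1 Treg.

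KR+ and KG+ cells were compared without a test, since KR+ cells formed 1 library. A V gene was named where Kaede-red differed from both KG+ libraries by over 2-fold in the same direction and by more than they differed from each other, among genes with at least 10 UMIs in 1 of the sums. In CD8 T cells 63 V genes were compared, of which 0 were higher in Kaede-red and 8 lower, beside 1.43% of all genes higher and 4.04% lower. The 8 were all alpha genes, namely *Trav10n*, *Trav9n-4*, *Trav14n-3*, *Trav7-4*, *Trav9-1*, *Trav6-5*, *Trav12-3* and *Trav8-2*. Only *Trav12-3*, with 11, 14 and 5 UMIs, had at least 10 UMIs in both KG+ libraries. The others met that minimum through Kaede-green 2 alone. Their count thus depends on the minimum and is no result about time in the tumor. *Trav10n* had 3, 39 and 0 UMIs in CD8 T cells and *Trav7-4* 7, 23 and 5, so that Kaede-green 2 stood highest for both. *Trav9-1* had 9, 13 and 7 UMIs, or 0.386, 0.341 and 0.114 CPM. As shares of all *Trav* UMIs, 2 V genes were higher and 7 lower.

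In CD4 T cells 1 of 13 V genes was higher in Kaede-red and 0 lower, beside 1.77% of all genes in each direction. This was *Trbv3*, with 7, 8 and 11 UMIs, or 2.60, 2.55 and 7.18 CPM. With cells kept in every gate they met, 0 were higher and 3 lower. In Treg 1 of 31 was higher and 1 lower, beside 0.928% of all genes higher and 1.35% lower. *Trav7-4* was the higher, with 2, 3 and 15 UMIs, and *Trav13-4-dv7* the lower, with 6, 32 and 2 UMIs, and with cells kept in every gate 0 were higher and 3 lower. These shares of V genes rest on small counts, and with 1 KR+ library a difference between mice and a difference of time in the tumor cannot be told apart.

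The remaining genes of the receptor pathway were described from a list of 31 (constant genes, CD3 subunits, kinases and adaptors of the signal, costimulators and inhibitors, and genes of recombination), of which 26 were tested between types. Between CD8 T and Treg, 7 were higher and 6 lower in CD8 T, beside 13.1% and 12.9% of all genes, and between CD4 T and Treg 9 were higher and 1 lower in CD4 T, beside 10.1% and 8.8% (edgeR, Benjamini-Hochberg). Both beta constant genes were among those higher in CD8 T than in Treg, *Trbc2* by 1.17 ± 0.09 and *Trbc1* by 1.02 ± 0.11 (log2 fold change ± SE). *Cd5*, an inhibitor of receptor signaling, was lower by −1.92 ± 0.31 and the costimulatory receptor gene *Cd28* by −0.75 ± 0.13. Between CD8 T and CD4 T, 2 were higher (*Trbc2* and the CD3 subunit gene *Cd3g*) and 8 lower, beside 9.18% and 11.5% of all genes. By *Havcr2*, 4 of 25 were higher (*Trac*, *Cd3g*, *Cd3d* and the kinase gene *Zap70*) and 6 lower, among them *Trdc* (−1.30 ± 0.15), beside 13.6% and 14.0% of all genes. Against NK cells, 16 were higher in T cells and 3 lower, beside 18.8% and 19.3%.

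Across the 12 sums of library and type, the genes whose CPM followed *Trbv12-2* most closely among 12412 genes were *Tdrp* (Spearman's rho 0.951), *Actn1*, *Dusp10* and the constant gene *Trbc2* (0.923 each), and *Casc4*, *Gm47512*, *Nsg2* and *Tnp2* (0.916 each). The 12 sums share libraries and depth, so this is a description of the pattern and not a test.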

How the data were processed

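Lymphocytes sorted from tumors were profiled with 10x 3′ v3 chemistry. The authors' deposited files hold raw UMI counts per gene and cell from Cell Ranger on mm10 (version 6.1.2 per the submitters' processing notes, 6.0.1 in the header of the tables), which leaves out reads that fit several genes, so near copies lose reads. Cells with 1000 to 6000 genes and under 7.5% mitochondrial counts were kept, doublets (Scrublet scores by cluster, scanpy 1.11.5, adjusted threshold 0.1) removed, and cells in several gates left out. UMIs were summed per library and type and tested in edgeR 4.0.16 (quasi-likelihood, TMM, low-count filter, library as block, Benjamini-Hochberg, threshold 0.05), which was tested on simulated data. In 1 fit, 12 sums of CD8 T, CD4 T, Treg and NK were used, and 6 sums in the fit by *Havcr2*. Median depth and cells per library are given with the results. Named genes were the 5 most used genes per locus and type, up to 10 called each way, and the leading calls, pairs and like genes. Pairs in 10 or more cells were listed after their values were seen. Members and lists were chosen with earlier results of these data known. Transcripts came from GENCODE vM21 (GRCm38). Alternatives included DESeq2 1.42.0, other gates, leaving out each library, locus scaling and calls of at least 2 UMIs. The gene names of gates are no findings.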

Additional observations from a re-analysis of the deposited data

Results flagged for a closer look

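*Trav22*, an annotated pseudogene of the alpha locus (chr14:53926978-53927595, plus strand, GRCm38), stood out in the NK cells that served as background. It did not pass the filter on low counts and so was not among the V genes tested against NK cells. It had 40 UMIs in NK cells, 16, 11 and 13 in Kaede-green 1, Kaede-green 2 and Kaede-red, each in a separate cell. These were 0.654, 0.513 and 0.456% of NK cells and 36.0% of the 111 *Trav* UMIs of NK cells, whereas 11563 T cells held 4 UMIs of it. *Trav22* was flagged by a rule that required its CPM in every NK sum to exceed that in every T cell sum. Its higher level in NK cells of each library therefore follows from the choice. *Trdc*, the delta constant gene of the same locus, was also higher in NK cells than in CD8 T cells, at 107, 97.0 and 47.3 CPM against 22.2, 13.6 and 9.63 CPM. In CD4 T it stood at 90.9, 28.1 and 35.9 CPM and in Treg at 36.5, 30.9 and 23.2 CPM. These were below NK cells of the same library, but CD4 T of Kaede-green 1 lay above NK cells of Kaede-red. Whether the signals are linked was not tested.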

How the results depend on the processing

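No paired analysis was possible because the labels give the KG+ libraries and the KR+ library fewer than 2 shared replicate numbers, but types of 1 library were blocked by library. Called V genes numbered 6 for CD8 T against CD4 T, and 0 with cells kept in every gate, 3 without the library block and 1 to 5 leaving out each library. For CD8 T against Treg 21 became 7 to 17 leaving out each library. For CD4 T against Treg 6 became 3 with stricter gates, 3 with the compared types alone and 0 to 6 leaving out each library. By *Havcr2*, 10 became 3 with DESeq2, 1 without the block and 6 to 9 leaving out each library. Against NK, 41 became 64 with no low-count filter, 5 scaled to the locus and 37 to 43 leaving out each library. The effective number of *Trbv* genes was 12.5 in CD8 T, 9.90 in CD4 T and 5.06 in Treg with calls of at least 2 UMIs, and in CD4 T 13.3 with every gate and 10.7 over UMIs. That of *Trav* genes was 12.9 in CD8 T and 25.8 in Treg with calls of at least 2 UMIs (CD4 T gave no value), 20.05 in CD8 T, 33.6 in CD4 T and 23.0 in Treg over UMIs, and 60.1 in thinned CD4 T. Between KR+ and KG+ libraries, the 1 called gene of CD4 T (higher) became 2 with doublets kept and 3 with every gate, all 3 of them lower, and the 2 of Treg became 8 at 1.5-fold. The cause was not tested. The other 90 values of these summaries stayed within the spread or 1.5 times. For named genes, 350 of the alternative values kept the call, 132 lost it and none reversed. *Trbv* calls numbered 47 to 89 per library in CD4 T and 46 to 149 in Treg, which limits their shares most.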

Other observations

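Some T cells held UMIs of more than 1 beta gene, and the genes that came together were not spread evenly, a pattern that was looked at after the values were seen. Of CD8 T cells with at least 2 *Trbv* UMIs, 51 of 157, 78 of 300 and 134 of 375 held at least 2 genes (32.5, 26.0 and 35.7%). *Trbv12-2* and *Trbv13-2*, whose starts lie 2545 bases apart, were found together in 9, 4 and 28 cells, 41 in all. Independent genes would give 2.56, 2.24 and 8.43 cells, 13.2 in all. The cells with both were 18.6% of the *Trbv13-2* cells. *Trbv12-2* and *Trbv14*, 16294 bases apart, were found together in 8, 3 and 17 cells, 28 in all. This stood against 2.94, 3.37 and 5.80 cells, 12.1 in all, so that Kaede-green 2 showed no excess. *Trbv12-2* and *Trbv17*, on the far side of *Trbv14*, were found together in 11 cells against 11.3. *Trbv12-1*, whose start lies 5301 bases from that of *Trbv12-2*, was found with it in 5 cells against 10.7. Pairs without *Trbv12-2* also exceeded independence. *Trbv19* and *Trbv20* were found together in 8 cells against 2.55, and *Trbv12-1* and *Trbv23*, 102523 bases apart, in 5 against 0.367. *Trbv12-2* was held by 17.8, 5.84 and 20.2% of cells with *Trbv13-2*, *Trbv13-3* or *Trbv14* and by 2.92, 2.65 and 3.53% of cells with any other beta gene. Cells in which only 1 beta gene was seen held *Trbv12-2* in 19.6, 10.1 and 16.0%. Of 582, 995 and 1275 CD8 T cells with a *Trbv* UMI, only 157, 300 and 375 held at least 2. Cells seen with 1 beta gene may therefore carry RNA of another, and this share cannot leave such cells out.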
